A study of Mus musculus with 8 samples.

Results

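The BCL2 family decides whether mitochondria release the proteins that start apoptosis, and 10 of its genes were followed here across B16 mouse melanoma cells. They were chosen by name: every array spot whose gene name was Bcl2, Bcl2l1, Mcl1, Bax, Bak1, Bid, Bad, Bcl2l11, Bbc3 or Pmaip1. These 10 of 34834 gene names were read by 14 of 55698 probes, on 19 spots of each array. B16 is an established pigmented melanoma line, grown in medium with fetal bovine serum per the labels. The study measured total RNA on 8 one-colour arrays in 4 groups of 2 biological replicates: untreated control cells labelled 0 h, cells given SEMA3E for 2 h or for 8 h, and cells given cytochalasin D for 8 h. The guidance factor SEMA3E, a semaphorin that cells secrete, acts through the receptor plexin D1, and cytochalasin D is a fungal compound that blocks the growth of actin filaments. The SEMA3E and cytochalasin D doses were not given in the sources used here. The control labelled 0 h was not matched in time to either 8 h group, while the 8 h groups were matched to each other. The labels do not say whether replicates came from separate cultures, so p-values measure the spread between these samples, which may be technical.

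The family has 3 roles. Pro-survival members, here Bcl2, Bcl2l1 (BCL-XL) and Mcl1, hold a groove that binds the BH3 helix of the other members. The effectors Bax and Bak1 open the outer mitochondrial membrane, and the BH3-only members Bid, Bad, Bcl2l11 (BIM), Bbc3 (PUMA) and Pmaip1 (NOXA) sense stress and either occupy the groove or activate the effectors. In melanoma cells the balance is known to lean on MCL1 and BCL-XL, and BIM and PUMA are known as transcriptional responders to lost survival signals and to p53. The transcripts are one layer only, since MCL1 protein, BID cleavage and BAD phosphorylation are set after transcription.

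Each value below comes from 1 probe of 60 bases, and 4 probes are shown because their sequence says which part of the message was read. The Bcl2 probe starts in the coding sequence of the BH1 region, and the dimmer of the 2 Bcl2l1 probes lies in the coding sequence just before the BH2 region. BH1 and BH2 both line the binding groove. The dimmer Bad probe lies in the coding sequence near the start of the protein. The brighter Bcl2l11 probe lies on the BH3 region itself, and its capitals mark the codons for the glycine and aspartate at the core of that helix.
Bcl2: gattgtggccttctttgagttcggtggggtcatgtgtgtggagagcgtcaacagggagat
Bcl2l1, dimmer probe: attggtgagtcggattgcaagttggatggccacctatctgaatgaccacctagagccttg
Bad, dimmer probe: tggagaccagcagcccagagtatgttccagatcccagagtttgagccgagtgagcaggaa
Bcl2l11, brighter probe: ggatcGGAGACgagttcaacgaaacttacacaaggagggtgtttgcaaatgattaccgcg
The letters GGAGAC, searched on the printed strand alone, occur in 1.69% of all 55698 probes, the Bad probe above among them, so in themselves they mark nothing. No transcript sequences were used here, so probe positions within each message were not computed.

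All levels are log2 of the scanner's processed signal minus the array's 75th percentile over probes well above background on every array. A level of 0 is that percentile, and a difference of 1 is 2-fold. A level belongs to its probe, so the levels of different genes are not compared. Of the 14 probes, 12 entered the test, because they were well above background on both arrays of at least 1 group. These 12 cover 9 of the 10 members. Pmaip1 was the exception, since its only probe was above background on none of the 8 arrays, with levels from -10.63 to -8.72. The second Bcl2l11 probe was above background on none either, with levels from -10.06 to -7.34.

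The arrays were not equal in strength. Both SEMA3E 2 h arrays and cytochalasin D replicate 2 were dimmer, with 75th percentiles of raw signal of 59.3, 61.1 and 66.8, while the remaining arrays had 111 to 154. The share of spots well above background ran from 37.8% to 48.2%, and 0 spots were saturated. No member spot carried an outlier mark. All 7 melanocyte markers (Dct, Tyrp1, Pmel, Mitf, Tyr, Mlana, Sox10) were above background on all 8 arrays, at -0.14 to 5.47. Of 4 leukocyte, 5 fibroblast, 3 endothelial and 3 keratinocyte markers, 6 were above background on all arrays, each at -3.42 or below, while Pdgfra and Cdh5 were so on none and Ptprc on 1.

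No probe of the 12 passed the test in any of the 5 comparisons, which used limma with Benjamini-Hochberg adjustment over all 24668 probes tested and an adjusted p under 0.05. The comparisons themselves called almost nothing: 0% of probes at 2 h of SEMA3E against control, 0.00405% at 8 h against control, and 0% for cytochalasin D against control, cytochalasin D against SEMA3E at 8 h, and SEMA3E at 8 h against 2 h. With 2 arrays a group, differences had a median standard error of 0.36, and a lone probe with that error would need a difference of 4.92 to pass. Every difference below therefore describes these arrays, and none is called a change. Signs are relative to the 75th percentile scale. At most 48.2% of spots were well above background on any array, so the median of all probes lay among dim probes. Scaled to the median of all probes, each comparison shifts by a constant, and the median over all probes went from 0.04 to -0.56 at 2 h of SEMA3E, from 0.15 to -1.01 at 8 h and from 0.01 to -0.16 with cytochalasin D. In these bulk samples fewer cells of a kind and less RNA per cell cannot be told apart.

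**Figure D1:**
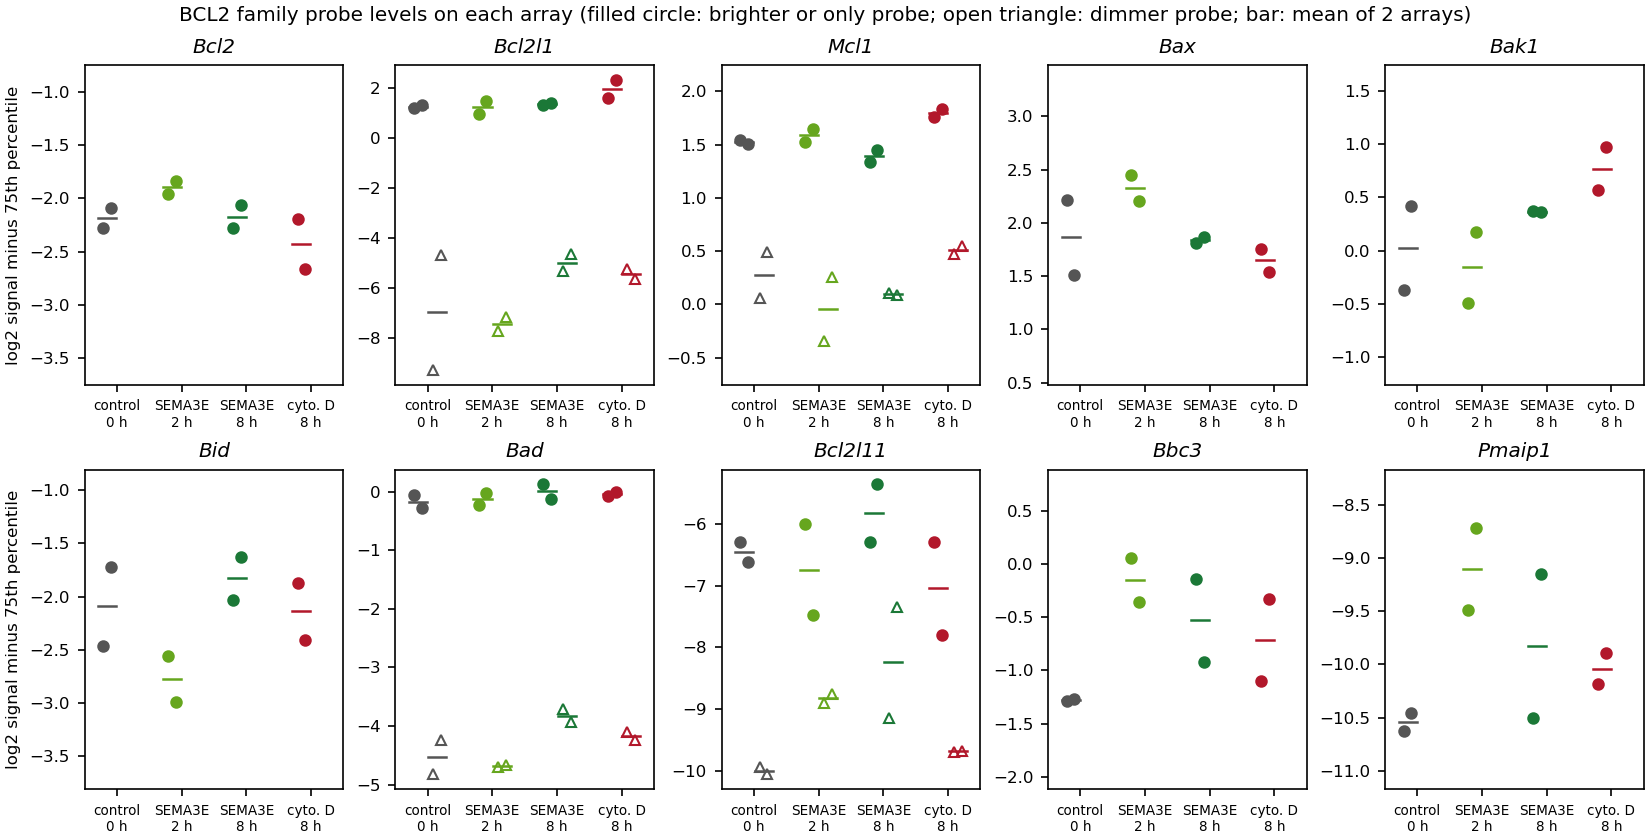
Level of each BCL2 family probe on each array (log2 signal minus the array's 75th percentile, each panel with its own range), by group, with bars at the mean of 2 arrays. Bbc3 lies higher on all 6 treated arrays than on either control array, and the dimmer Bcl2l1 probe splits the 2 control arrays between -9.30 and -4.68.

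Bbc3 lay on the same side of control in all treated groups, by unequal amounts. Its product PUMA binds all the pro-survival members. The control arrays read -1.29 and -1.26. The SEMA3E 2 h arrays read 0.06 and -0.35, the SEMA3E 8 h arrays -0.14 and -0.92, and the cytochalasin D arrays -1.10 and -0.33. All 6 treated arrays lay above both controls, and the treated groups overlapped one another. Before scaling, the scanner signals were 1135 and 958 in control, 1245 and 912 at 2 h, 2470 and 1192 at 8 h, and 953 and 1119 with cytochalasin D. On these unscaled signals the 2 h and cytochalasin D groups overlapped control, so their separation rests on the scaling. The difference from control was 1.13 ± 0.39 (SE) at 2 h of SEMA3E, or 2.18-fold, with an unadjusted p of 0.022 and an adjusted p of 0.529 in limma. It was 0.75 ± 0.39 at 8 h of SEMA3E (adjusted p = 0.816) and 0.56 ± 0.39 with cytochalasin D (adjusted p = 1). These 3 differences share the 2 control arrays, whose Bbc3 values lay 0.015 (SD) around their mean, against 0.29, 0.55 and 0.55 in the treated groups. By group mean the order was SEMA3E 2 h at -0.15, SEMA3E 8 h at -0.53, cytochalasin D at -0.72 and control at -1.28. The first pair of neighbours differed by 0.38 and the second pair by 0.19, each less than its SE of 0.39. With replicate 1 of SEMA3E 8 h left out the 8 h difference was 0.36, and with replicate 2 left out it was 1.14. The cytochalasin D difference was 0.94 without its replicate 1 and 0.17 without replicate 2. Scaled to the median of all probes the 2 h difference was 0.54 and the 8 h difference -0.41. With normexp background correction the 2 h difference was 1.05 and passed, at an adjusted p of 0.040, in a fit that called 6677 probes, 6562 of them higher.

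Bid, which caspase 8 cuts into an active fragment, lay lowest at 2 h of SEMA3E. Its levels were -2.46 and -1.72 in control, -2.55 and -2.99 at 2 h, -2.03 and -1.63 at 8 h, and -1.87 and -2.41 with cytochalasin D. The 2 h arrays lay below all 6 others, although -2.55 and the lower control at -2.46 were close. The 2 h group differed from control by -0.68 ± 0.37 (adjusted p = 0.563), which became -1.05 without control replicate 1 and -0.31 without control replicate 2. From 2 h to 8 h of SEMA3E the difference was 0.94 ± 0.37, or 1.92-fold, with an unadjusted p of 0.039 and an adjusted p of 0.404. At 8 h neither SEMA3E nor cytochalasin D stood apart from control, with differences of 0.26 and -0.05 and overlapping arrays.

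Bad, whose product is held inactive when growth factor signals phosphorylate it, was read by 2 probes. On the brighter one the levels spanned 0.41 over the 8 arrays, from -0.28 to 0.13, against a median span of 1.25 over all probes tested. That was the narrowest span of the 12 member probes. On the dimmer one, the coding probe shown above, the levels were -4.83 and -4.25 in control, -4.69 and -4.66 at 2 h, -3.71 and -3.94 at 8 h, and -4.10 and -4.23 with cytochalasin D. The SEMA3E 8 h arrays lay above all 6 others. The difference was 0.72 ± 0.29 from control (unadjusted p = 0.044, adjusted p = 0.773, 0.42 without control replicate 1) and 0.86 ± 0.29 from 2 h (unadjusted p = 0.021, adjusted p = 0.395). The brighter probe gave 0.18 ± 0.26 and 0.13 ± 0.26 for the same contrasts, with overlapping groups, so the probes disagreed in size. The negative control spots of SEMA3E 8 h replicate 2 read 41.6 against 17.9 to 22.2 on the other arrays. Whether this bears on the dimmer probe was not tested.

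Bcl2l11 encodes BIM, which binds every pro-survival member and can activate the effectors directly. The probe on its BH3 region was dim. It read -6.30 and -6.62 in control, -6.00 and -7.48 at 2 h, -6.29 and -5.35 at 8 h, and -6.29 and -7.80 with cytochalasin D. It was well above background on 6 of the 8 arrays, not on SEMA3E 2 h replicate 2 or cytochalasin D replicate 2, which held the lowest levels. The scanner signals behind those levels were 6.51 and 6.34, against 18.7 to 55.1 on the other 6. No group stood apart except that the 8 h arrays lay above control by the narrow gap between -6.296 and -6.293. The SEMA3E 8 h group differed from control by 0.63 ± 0.66 (adjusted p = 0.901), and cytochalasin D differed from SEMA3E at 8 h by -1.22 ± 0.66 (adjusted p = 0.498). The first was 0.16 without SEMA3E 8 h replicate 2 and larger without its replicate 1, and the second was -0.47 without cytochalasin D replicate 2 and -1.97 without its replicate 1.

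Taken by role, the 5 tested BH3-only probes, from 4 genes, lay above control in 5 of 5 cases at 8 h of SEMA3E. Their median difference was 0.63, against 0.15 over all 24668 probes, of which 65% lay above 0. That 0.63 is the value of the dim Bcl2l11 probe. With no filter on dim probes, the median over 55460 probes was 0.66. Whether dimness bears on the BH3-only values was not tested. Of the 5, the groups did not overlap and SEMA3E lay higher for 3 (Bbc3, Bcl2l11 and the dimmer Bad probe), against 25.8% of all probes. The unadjusted p was under 0.05 for 1 of them, against 6.46% of all probes in either direction. At 2 h 2 of the 5 lay above 0, with a median of -0.14, against 52.8% of all probes above 0. With cytochalasin D 3 of 5 did, with a median of 0.13, against 51.5%. In the time-matched contrast of cytochalasin D with SEMA3E at 8 h, 5 of 5 lay below 0, with a median of -0.31, against -0.18 and 63.1% below 0 over all probes. The signs at 8 h of SEMA3E depend on the scale chosen. Bbc3, Bcl2l11 and the dimmer Bad probe turned sign under 1 of the alternative settings, and Bid and the brighter Bad probe under 2. When arrays were scaled to the median of all probes, all 5 differences from control lay below 0, between -0.98 for the brighter Bad probe and -0.41 for Bbc3. In the contrast of cytochalasin D with SEMA3E at 8 h that scaling put 4 of the 5 above 0, at 0.79 for Bbc3, 0.67 for Bid, and 0.94 and 0.63 for Bad, and left Bcl2l11 below 0.

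Under SEMA3E the pro-survival genes differed from control by at most 0.29 in size on their brighter or only probes, on the 75th percentile scale. Scaled to the median of all probes, the 8 h differences were -1.15 for Bcl2, -1.29 for Mcl1 and -1.05 for Bcl2l1, and Bcl2 at 2 h lay at -0.30. Bcl2, the founding member, read -2.28 and -2.09 in control, -1.96 and -1.83 at 2 h, -2.28 and -2.06 at 8 h, and -2.19 and -2.67 with cytochalasin D. Its 2 h arrays lay above all the others, and the difference from control was 0.29 ± 0.28 (adjusted p = 0.734). Before scaling, the signals were 307 and 327 at 2 h, below 569 and 541 in control, so this order rests on the scaling. At 8 h the difference was 0.01 ± 0.28, with a 95% interval from -0.65 to 0.68, and with cytochalasin D it was -0.25 ± 0.28.

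Mcl1, whose protein turns over quickly, was read by 2 probes above background on all 8 arrays. The brighter probe read 1.55 and 1.51 in control, 1.53 and 1.65 at 2 h, 1.34 and 1.45 at 8 h, and 1.76 and 1.83 with cytochalasin D. The dimmer probe read 0.06 and 0.49, -0.34 and 0.25, 0.11 and 0.09, and 0.47 and 0.55 in the same order of groups. In both readings the cytochalasin D arrays lay above the SEMA3E 8 h arrays, by 0.40 ± 0.25 (adjusted p = 0.545) and 0.41 ± 0.31 (adjusted p = 0.612). These are 2 readings of the same RNA, so they count as 1 result. Before scaling, the brighter probe gave 6916 and 5022 with cytochalasin D, and 6882 and 6172 at 8 h of SEMA3E. On both probes the unscaled signals of these groups overlapped, so the separation rests on the scaling. Against control, cytochalasin D differed by 0.27 ± 0.25 on the brighter probe, without overlap, and by 0.23 ± 0.31 on the dimmer one, with overlap. SEMA3E at 8 h differed from control by -0.13, with a 95% interval from -0.71 to 0.45.

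Bcl2l1 encodes BCL-XL and, by another splice site, a shorter form that promotes death. Its brighter probe read 1.18 and 1.31 in control, 0.94 and 1.49 at 2 h, 1.32 and 1.38 at 8 h, and 1.59 and 2.32 with cytochalasin D. The cytochalasin D arrays lay above all 6 others. Their difference was 0.71 ± 0.34 from control, or 1.64-fold (unadjusted p = 0.074, adjusted p = 1), and 0.60 ± 0.34 from SEMA3E at 8 h (adjusted p = 0.516). The difference from control was 0.35 without cytochalasin D replicate 2 and 1.07 without its replicate 1. Before scaling, the signals were 6168 and 7030 with cytochalasin D, 6270 and 5700 in control, and 6801 and 5872 at 8 h of SEMA3E. These unscaled signals overlapped, so the separation rests on the scaling. SEMA3E differed from control by -0.03 ± 0.34 at 2 h and by 0.11 ± 0.34 at 8 h.

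The dimmer Bcl2l1 probe, shown above, gave other values. Its levels were -9.30 and -4.68 in control, -7.72 and -7.16 at 2 h, -5.33 and -4.66 at 8 h, and -5.26 and -5.67 with cytochalasin D. It was well above background on 5 arrays, and not on control replicate 1 or either SEMA3E 2 h array. The control arrays thus spanned nearly the whole range of the probe, with scanner signals of 4.39 and 90.0. The SEMA3E 8 h group lay above the 2 h group by 2.44 ± 1.26 in the fit (adjusted p = 0.447). The probe entered the test only through the 8 h groups, where it was high, so the selection itself favoured such a gap. The 95% interval of this difference ran from -0.52 to 5.40, and the lowest difference under the alternatives was 0.13. The 2 h arrays gave only an upper limit. With each 2 h array set to the higher of its signal and the lowest signal marked well above background, the gap was 4.61-fold. This choice can only raise the 2 h levels, and the fit without it gave 5.43-fold. The 4.61-fold gap is a point value under this choice, and the true gap may be larger or smaller. The brighter probe differed by 0.14 ± 0.34 in the same contrast. Against control no direction held for the dimmer probe. Without control replicate 1 the 8 h difference was -0.32 and without control replicate 2 it was 4.30.

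**Figure D2:**
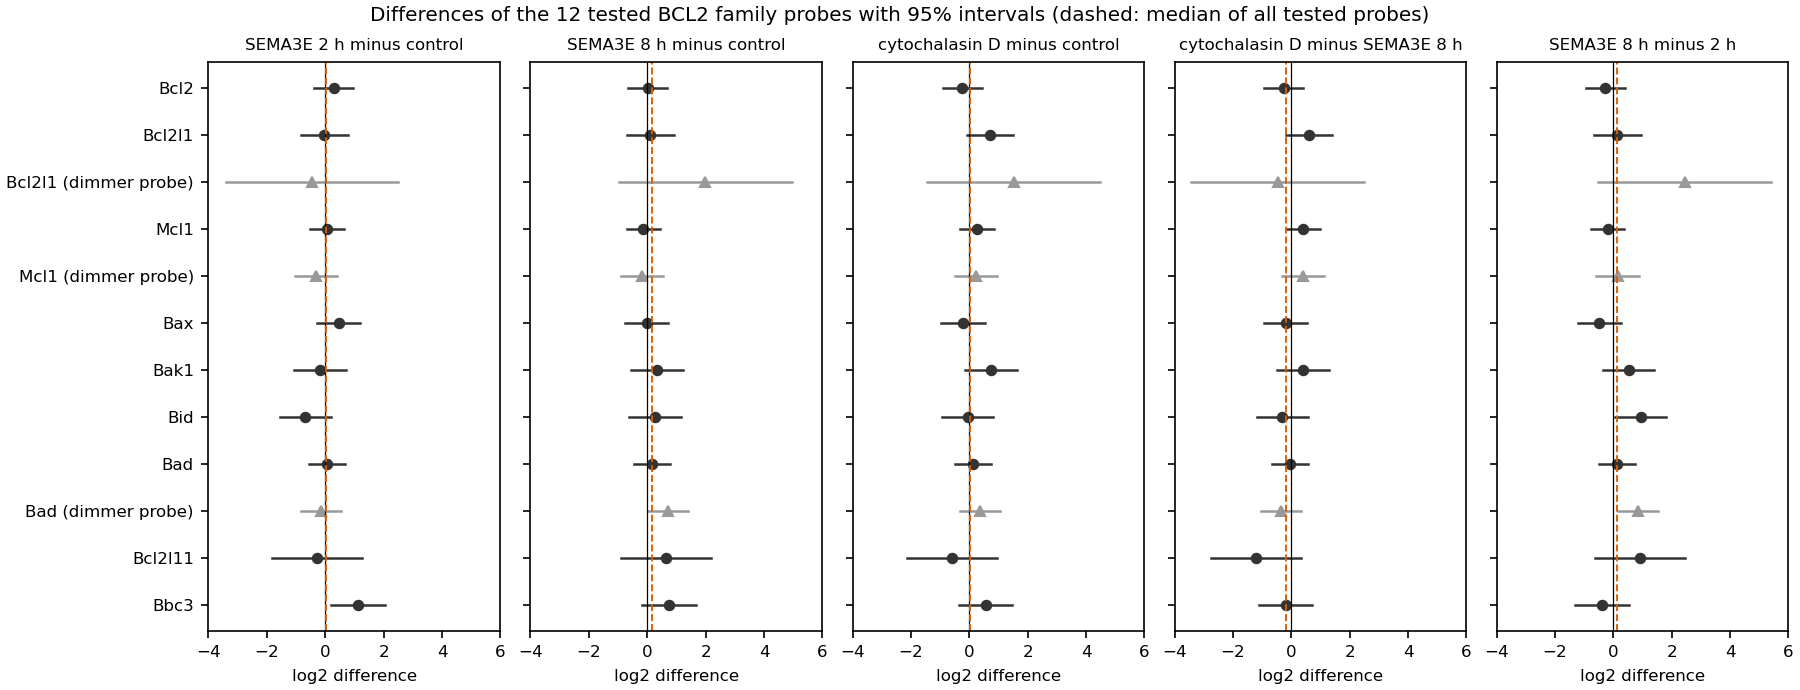
Difference of each tested BCL2 family probe in the 5 comparisons (log2, with 95% intervals from limma), circles for the brighter or only probe, triangles for the dimmer, and a dashed line at the median of all probes. Intervals leave out 0 for Bbc3 at 2 h, the dimmer Bad probe at 8 h against control and against 2 h, and Bid at 8 h against 2 h, and none of these passed after adjustment.

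Bak1, which sits in the mitochondrial membrane from the start, read -0.37 and 0.42 in control, -0.49 and 0.18 at 2 h, 0.37 and 0.36 at 8 h, and 0.57 and 0.97 with cytochalasin D. The cytochalasin D arrays lay above all 6 others, by 0.75 ± 0.38 from control (unadjusted p = 0.087, adjusted p = 1) and by 0.40 ± 0.38 from SEMA3E at 8 h (adjusted p = 0.681). Before scaling, the signals were 3035 and 2757 with cytochalasin D, 2139 and 3073 in control, and 3521 and 2890 at 8 h of SEMA3E. These unscaled signals overlapped, so the separation rests on the scaling. The controls differed from each other by more than the cytochalasin D arrays did, with an SD of 0.56 against 0.28. The difference from control was 1.14 without control replicate 2 and 0.35 without control replicate 1.

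Bax, which moves from the cytosol to mitochondria on activation, read 2.22 and 1.51 in control, 2.45 and 2.20 at 2 h, 1.81 and 1.87 at 8 h, and 1.75 and 1.54 with cytochalasin D. The 2 h arrays lay highest, although control replicate 1 reached 2.22, above the lower of them. The 2 h difference from control was 0.46 ± 0.32 (adjusted p = 0.626), which became 0.81 without control replicate 1 and 0.11 without control replicate 2. The step from 2 h to 8 h was -0.48 ± 0.32 (adjusted p = 0.510) without overlap. Before scaling, the signals were 6525 and 5364 at 2 h, below 9558 and 8240 at 8 h, so the sign of this step rests on the scaling. Cytochalasin D differed from control by -0.22 ± 0.32, with a 95% interval from -0.96 to 0.52, and from SEMA3E at 8 h by -0.20 ± 0.32. Without control replicate 1 the difference from control turned to 0.14, and without control replicate 2 it was -0.57.

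Counted over the 12 probes, the treated and control arrays did not overlap and the treated lay higher for 2 at 2 h of SEMA3E, for 4 at 8 h and for 5 with cytochalasin D. Over all probes the same held for 23.5%, 25.8% and 14.2%. The treated lay lower for 1 (Bid), 1 (the brighter Mcl1 probe) and 0 of the 12, against 16.4%, 11.4% and 13.9%. The 5 probes with cytochalasin D were the brighter ones of Bcl2l1 and Mcl1, those of Bak1 and Bbc3, and the dimmer one of Bad. They span all 3 roles, with 2 pro-survival, 1 effector and 2 BH3-only probes. On unscaled signals each of these 5 probes overlapped control, so their separation rests on the scaling. Between cytochalasin D and SEMA3E at 8 h, 4 lay higher without overlap and 2 lower, against 17.5% and 34.9%. Between SEMA3E at 8 h and 2 h, 4 lay higher and 3 lower, against 30.5% and 20.9%. The unadjusted p was under 0.05 for 1, 1, 0, 0 and 2 of the 12 in the order of the comparisons given above, against 9.2%, 6.46%, 2.55%, 11.2% and 12.1% of all probes. These counts mix readings of the same gene, since Bcl2l1, Mcl1 and Bad each enter with 2 probes. They also leave out Pmaip1 and the second Bcl2l11 probe, and the dimmer Bcl2l1 probe entered only through the 8 h groups, where it was high.

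The genes that work around the family gave no call either. Of 14 other BCL2 family genes, 12 were on the array and 6 were tested. Bcl2l2, which encodes the pro-survival BCL-W, differed from control by -0.68 ± 0.25 at 2 h of SEMA3E (unadjusted p = 0.031, adjusted p = 0.529), and by -0.10 ± 0.25 at 8 h. Bcl2l12 lay above control with cytochalasin D by 0.75 ± 0.33 (adjusted p = 1). Over the 6, the median difference from control was 0.14 and 0.11 at 2 h and 8 h of SEMA3E and 0.35 with cytochalasin D, against 0.04, 0.15 and 0.01 over all probes.

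Downstream, 10 of 10 genes of the apoptosome and caspases were tested and 0 were called. Dffb, the nuclease that cuts chromatin in apoptosis, lay at -6.72 in control, -7.73 at 2 h and -6.23 at 8 h of SEMA3E. Its step from 2 h to 8 h was 1.50 ± 0.40, with an unadjusted p of 0.007 and an adjusted p of 0.390. The 2 h level is dim. On the same arrays another probe, the dimmer one of Bcl2l1 at -7.72 and -7.16, was not above background. The background marks of the Dffb probe itself are not given here, so the size of the Dffb step is uncertain. Of the caspase inhibitors and their antagonists 6 of 7 genes were tested. Birc6, a large inhibitor of apoptosis, lay above SEMA3E 8 h with cytochalasin D by 1.26 ± 0.43 (unadjusted p = 0.022, adjusted p = 0.421). Xiap, which blocks caspases directly, differed from control by -0.61 ± 0.31 at 8 h of SEMA3E (adjusted p = 0.807), while Diablo, which displaces it, differed by 0.54 ± 0.33 (adjusted p = 0.837). In the death receptor pathway 6 of 7 genes were tested, and Fadd, its adaptor, gave differences from -0.28 to 0.45, none of them called.

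At the mitochondrial membrane 8 of 8 genes were tested. Bnip3, a mitochondrial BH3-containing protein that responds to hypoxia, lay above control at 2 h by 0.75 ± 0.41 (adjusted p = 0.563) without overlap. Among 14 of 14 tested genes that tether or degrade BCL2 proteins, Ywhag, a 14-3-3 protein of the kind that holds phosphorylated BAD, differed from control by -1.21 ± 0.50 at 2 h (unadjusted p = 0.046, adjusted p = 0.529) and by 0.04 ± 0.50 at 8 h. Ywhaz, another 14-3-3 protein, lay higher with cytochalasin D than with SEMA3E at 8 h by 1.37 ± 0.54 (unadjusted p = 0.036, adjusted p = 0.433).

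All 8 transcription factors of BH3-only genes were tested, and Ddit3 differed most among the genes named from these lists. Ddit3 encodes CHOP, the stress factor known to act on Bcl2l11 and Bbc3. Its group means were -2.70 in control, -1.76 at 2 h, -0.84 at 8 h of SEMA3E and -2.99 with cytochalasin D. SEMA3E at 8 h lay above control by 1.86 ± 0.67 (unadjusted p = 0.026, adjusted p = 0.728), and cytochalasin D lay below SEMA3E at 8 h by -2.15 ± 0.67 (unadjusted p = 0.014, adjusted p = 0.406), both without overlap. Foxo3, which acts on Bcl2l11 and Bbc3 when AKT signals fade, lay above control in all treated groups, by 0.60 ± 0.31 at 2 h, 0.48 ± 0.31 at 8 h and 0.75 ± 0.31 with cytochalasin D (adjusted p = 0.551, 0.852 and 1). Foxo1 differed from control by 0.57 ± 0.26 at 2 h (adjusted p = 0.529). For the list of 8 the median difference from control was 0.31, 0.16 and 0.12, against 0.04, 0.15 and 0.01 over all probes.

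**Figure D3:**
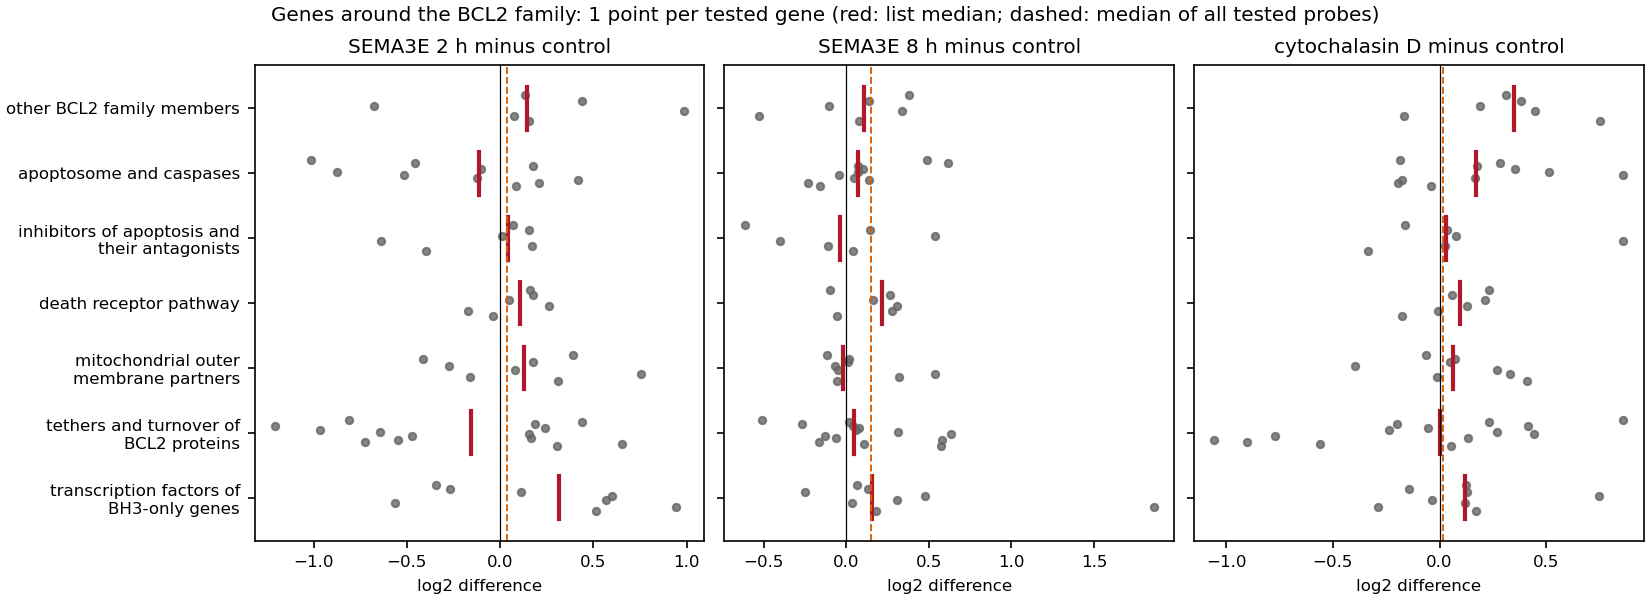
Difference from control (log2) of each tested gene in 7 lists around the BCL2 family, 1 point per gene, with the list median in red and the median of all probes dashed. List medians lie between -0.16 and 0.35, and Ddit3 at 8 h of SEMA3E, at 1.86, is the farthest point.

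On the brighter or only tested probe, the members with the widest spread over the 8 arrays were Bcl2l11, Bbc3 and Bak1, with SDs of 0.79, 0.54 and 0.48 against a median of 0.42 over all probes. The dimmer Bcl2l1 probe had a wider SD, 1.67, and the untested Pmaip1 probe 0.70. For each of the 3, the genes with the most similar profile were found by the root mean square difference over the 8 arrays, after each profile was centred on its own mean. For Bbc3 these were Gm3448 at 0.255, Rtl6 at 0.255 and 4933412E12Rik at 0.264, against a median of 0.642 over all genes. For Bcl2l11 they were Map3k14 at 0.238, A630089N07Rik at 0.261 and Kctd16 at 0.270, against 0.813. For Bak1 they were Dmwd at 0.107, Miga2 at 0.123 and Cops2 at 0.124, against 0.555. No other member was among them.

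The authors' deposited table, with 1 value per gene name and array, departed from the probes for Bcl2l1. Its values were 6270 and 716 in control, 2300 and 3270 at 2 h of SEMA3E, 677 and 722 at 8 h, and 573 and 442 with cytochalasin D, a 14.2-fold range. The brighter probe's own signal spanned 3.06-fold. On control replicate 1 and both SEMA3E 2 h arrays the table held the brighter probe alone, and on the other 5 arrays it held the geometric mean of both probes. The dimmer probe was above background on those 5 arrays and not on the first 3. Fitted in the same way, the table gave Bcl2l1 differences of 1.40 at 2 h, -1.57 at 8 h and -1.50 with cytochalasin D from control, and -2.96 between 8 h and 2 h, against -0.03, 0.11, 0.71 and 0.14 for the brighter probe. None passed the test. The sign with cytochalasin D was thus opposite in the table and on the probe.

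**Figure D4:**
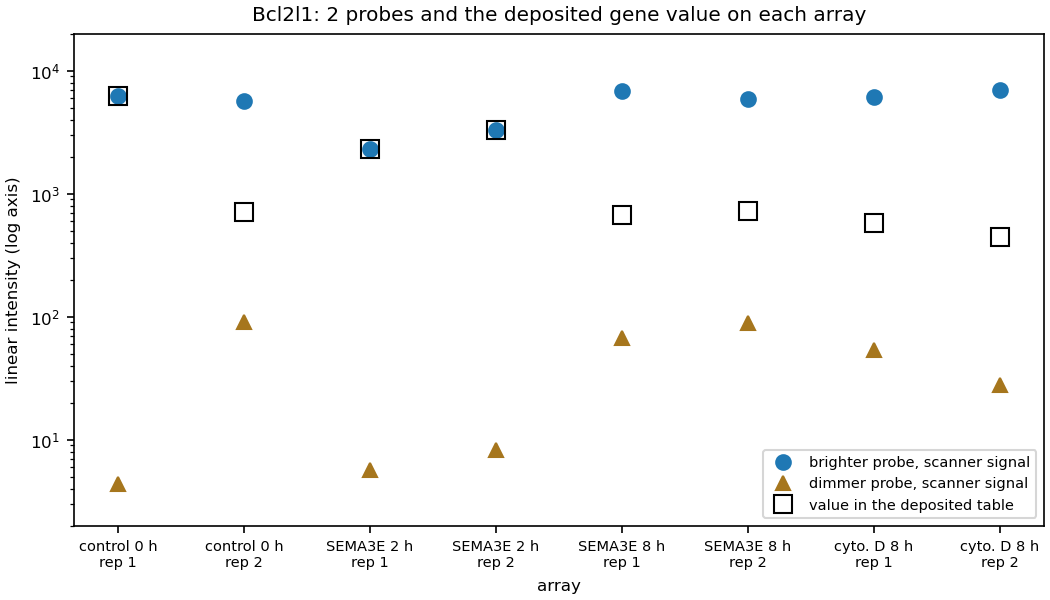
Linear signal of both Bcl2l1 probes and the deposited Bcl2l1 value on each array (log axis). The deposited value sits on the brighter probe on 3 arrays, at 2300 to 6270, and between the probes on the other 5, at 442 to 722.

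Bcl2l11 was the other member so affected. Its deposited values were 35.2 and 23.5 in control, 18.7 and 3.62 at 2 h, 34.7 and 55.1 at 8 h, and 26.1 and 2.66 with cytochalasin D. On the 6 arrays where the BH3 probe was above background the table held that probe's signal, and on the other 2 it held the mean over all spots. The other 4 members with several spots kept the same set of spots on all 8 arrays.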

How the data were processed

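RNA of 8 B16 samples was measured on Agilent one-colour arrays. Per the file headers, Agilent Feature Extraction 11.5.1.1 gave each spot a processed signal, a linear intensity with background subtracted, trends removed and low values set to surrogates, and arrays not scaled to one another. The authors also deposited a table of linear intensity per gene name, and how it combined spots was not given in the sources used here. The headers name build mm9 for the array, and no coordinates are given.

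From the deposited intensity, log2 values were formed after control spots were left out and outlier spots set to missing. Repeated spots of a probe were averaged, and each array's 75th percentile over 18691 probes above background on all arrays was subtracted. Group means were fitted with limma 3.58.1 (R 4.3.3) to all 8 arrays, with 4 residual and 3.28 prior degrees of freedom, two-sided tests and Benjamini-Hochberg adjustment over 24668 probes. Of the 55698 probes, 113 that would have entered were lost to outlier marks, and 27673 matched a RefSeq symbol. Figures used matplotlib 3.10.9 (Python 3.11.15, numpy 2.4.6, pandas 2.3.3).

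Named were all 10 members, the 3 genes per list with the lowest p (fewer where their values add little, and 1 is not reported here), and the 3 most similar genes for the 3 most variable members. The members and lists were chosen with earlier results of these data known. Tested on simulated data for SEMA3E at 8 h against control over 24668 probes, the fit called 0 of 50 probes put in at a difference of 1, 20 of 50 at 2, 33 of 50 at 3 and 40 of 50 at 4, with 6 false calls. The simulated noise was normal and independent between probes, and all these probes changed at once. The rates need not hold for a lone probe, which would need 4.92 at the median standard error. The number of arrays limits precision. The alternatives tried were 3 other scalings, 2 background corrections, 2 filters, outlier spots kept, 2 ways of joining probes, 2 spread estimates, a replicate block, fits of the compared groups alone, the deposited table, and each array left out.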

Additional observations from a re-analysis of the deposited data

How the results depend on the processing

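No member value passed the test in the reported fit, and of 1325 member values under 23 alternatives 1 did, Bbc3 at 2 h of SEMA3E under normexp. Of the 60 member differences, 20 kept their sign under every alternative run, among them Bbc3 at 2 h and with cytochalasin D, Bid at 2 h, Bak1 with cytochalasin D, and Bid and the dimmer Bad probe between 8 h and 2 h. The filters, spread estimates, replicate block and fits of the compared groups alone leave a difference unchanged, so they could not turn a sign. The same holds for leaving out an array outside the comparison. The counts of called probes were 0, 1 and 0 against control for SEMA3E at 2 h, then 8 h, then cytochalasin D, 0 for cytochalasin D against SEMA3E at 8 h, and 0 for SEMA3E at 8 h against 2 h. In the same order they were 63, 3, 4, 9 and 61 when each array's median served as the scale, and the median difference of all probes then lay at -0.56, -1.01, -0.16, 0.80 and -0.43. They were 6677, 0, 0, 2 and 1 with normexp and 20, 13, 9, 13 and 20 in the deposited table. The brightest probe per gene and array weights each gave 1 call for cytochalasin D against SEMA3E at 8 h, and the mean of a gene's probes gave 2 for SEMA3E at 8 h and 1 for that contrast. An intensity trend with robust spread gave 1 at 2 h and 0 at 8 h. Quantile normalization, normexp with quantile normalization, no filter, the stricter filter and the compared groups alone gave 0 at 8 h. With 1 array left out, where a lone array is assumed to vary like the other groups, counts ran from 0 to 354 at 2 h, 0 to 1 at 8 h, and 0 to 398 between 8 h and 2 h. The values 354 and 398 came without SEMA3E 2 h replicate 1. The cause of these moves was not tested.

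Replicate numbers did not pair the arrays: correlations of same-numbered deviations ran from -0.18 to 0.14, and the replicate block gave 0 calls at 8 h of SEMA3E and in the other comparisons. It changed no member's call.

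Signal limits the members unequally. Pmaip1 and the second Bcl2l11 probe gave no usable level, and the dimmer Bcl2l1 probe only a bound on 3 arrays.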

Other observations

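The way the deposited table joined spots is not stated, and its values were compared with the spots. The geometric mean over those spots marked well above background on an array, or over all spots where none was, came within 1% of 99.99% of 112440 values, for 14055 gene names with several spots. A mean over all spots did so for 73.0%. Under that rule the set of spots used differed between arrays for 6292 gene names, 44.8% of those with several spots, Bcl2l1 and Bcl2l11 among them.

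The pattern of the dimmer Bcl2l1 probe was shared. Of 1016 probes well above background on exactly 5 arrays, 66 missed the same 3, control replicate 1 and both SEMA3E 2 h arrays. This was the third most frequent of 43 patterns seen out of 56 possible, whose median was 6 probes and whose most frequent held 273.

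The gap between the dimmer and the brighter Bcl2l1 probe was -10.48 and -5.98 in control, -8.66 and -8.64 at 2 h, -6.66 and -6.04 at 8 h, and -6.86 and -7.98 with cytochalasin D. For Bad it ran from -4.77 to -3.82, narrowest on the SEMA3E 8 h arrays at -3.84 and -3.82, and for Mcl1 from -1.87 to -1.02. Over 4812 genes with several tested probes the centred gap had a median of -0.07 and 0.12 in control, -0.16 and -0.10 at 2 h, 0.13 and 0.29 at 8 h, and 0.03 and -0.18 with cytochalasin D.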
